A study of Mus musculus with 2 samples.

Results

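The genes described here are 7 transcription factor genes known from the making of olfactory neurons, namely Neurog1, Neurod1, Ebf1, Ebf2, Ebf3, Lhx2 and Emx2. They were chosen by symbol, each matched 1 entry of both gene tables, and they are 7 of the 27998 genes listed for both libraries. The tissue was the region of the E11.5 mouse face in which the nasal and maxillary prominences meet, with the lambdoid junction, the groove of the nasolacrimal duct and the nasal fin. Its cells were measured by droplet single-cell RNA sequencing, which tags each captured RNA molecule with a unique molecular identifier (UMI). A wild-type library held 7966 cell barcodes and a Crect; ROSA26-lacZ library held 6894. Crect is a transgene that drives Cre recombinase in the ectoderm, ROSA26-lacZ is the reporter that Cre switches on, and the wild-type embryos carry neither per the labels. Both libraries are labelled C57BL/6J and each pooled the tissue of 4 to 5 embryos, so there is 1 library per genotype and no test between genotypes was possible.

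Olfactory neurons arise from the olfactory placode, a thickened patch of head ectoderm that folds into the nasal pit. In mouse olfactory epithelium, progenitors switch on the basic helix-loop-helix factor Neurog1, then its relative Neurod1 as they leave the cell cycle. Ebf1, Ebf2 and Ebf3, helix-loop-helix factors of the early B-cell factor family, and the LIM-homeodomain factor Lhx2 act as the neurons mature and choose odorant receptors, and the homeodomain factor Emx2 is known for a role in receptor gene expression and axon growth. The Ebf genes are also known from mesoderm and neural crest derivatives, Lhx2 from eye and limb, and Emx2 from forebrain and urogenital system.

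On build mm10 with GENCODE vM21, Neurog1 lies at chr13:56250478-56252163 on the minus strand and Neurod1 at chr2:79452521-79456751 on the minus strand. Lhx2 lies on the plus strand at chr2:38339281-38369733 and Emx2 at chr19:59458372-59465357, also on the plus strand. Ebf1 spans chr11:44617317-45008091 and Ebf2 spans chr14:67233292-67430918, both on the plus strand, and Ebf3 spans chr7:137193673-137314445 on the minus strand. All 7 are annotated as protein coding.

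The promoter windows of Neurog1, Neurod1 and Lhx2 are printed because these genes were the most concentrated in the neuron-like cells described below, and that of Ebf3 because it holds the letters of an Ebf site. The windows run from 250 bases before to 50 bases after a RefSeq transcript start on GRCm38.p6, read 5′ to 3′ along the gene. They lie at chr13:56252131-56252430 (Neurog1, minus strand), chr2:79456587-79456886 (Neurod1, minus strand), chr2:38339031-38339330 (Lhx2, plus strand) and chr7:137314396-137314695 (Ebf3, minus strand). Capitals mark CANNTG, the E-box bound by basic helix-loop-helix factors, TAATTA, a homeodomain core, and CCCNNGGG, the core of Ebf sites.
Neurog1: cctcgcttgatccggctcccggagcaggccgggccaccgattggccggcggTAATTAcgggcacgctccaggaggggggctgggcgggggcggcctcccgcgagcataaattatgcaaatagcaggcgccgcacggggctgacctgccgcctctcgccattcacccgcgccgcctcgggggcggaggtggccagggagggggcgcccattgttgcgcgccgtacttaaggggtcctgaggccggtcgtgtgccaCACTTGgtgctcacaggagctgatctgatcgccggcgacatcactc
Neurod1: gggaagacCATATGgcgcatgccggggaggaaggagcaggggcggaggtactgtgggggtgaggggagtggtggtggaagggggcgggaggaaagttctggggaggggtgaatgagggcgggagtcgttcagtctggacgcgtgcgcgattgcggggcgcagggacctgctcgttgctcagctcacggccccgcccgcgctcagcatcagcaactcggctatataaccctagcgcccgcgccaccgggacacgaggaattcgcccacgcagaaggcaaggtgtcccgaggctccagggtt
Ebf3: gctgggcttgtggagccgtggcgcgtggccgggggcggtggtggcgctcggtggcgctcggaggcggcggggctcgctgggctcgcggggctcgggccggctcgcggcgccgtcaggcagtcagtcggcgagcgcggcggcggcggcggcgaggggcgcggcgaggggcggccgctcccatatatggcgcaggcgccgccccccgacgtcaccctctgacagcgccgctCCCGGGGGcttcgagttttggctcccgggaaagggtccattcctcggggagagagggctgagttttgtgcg
Lhx2: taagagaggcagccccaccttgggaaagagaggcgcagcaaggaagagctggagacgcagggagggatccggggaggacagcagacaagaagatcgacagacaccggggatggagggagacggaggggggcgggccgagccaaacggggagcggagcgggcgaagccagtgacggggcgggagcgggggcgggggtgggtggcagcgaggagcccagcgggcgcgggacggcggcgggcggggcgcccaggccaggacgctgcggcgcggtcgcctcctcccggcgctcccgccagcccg
The Neurog1 window held 1 E-box and 1 TAATTA, the Neurod1 window held 1 E-box, the Ebf3 window held 1 CCCNNGGG, and the printed Lhx2 window held none of the 3 motifs. A second Lhx2 window, at chr2:38351058-38351357 on the plus strand and not printed, held 1 E-box and 2 CCCNNGGG matches. Each motif reads the same on both strands, and matches of different motifs did not overlap. Among 32851 windows of this length, 72.3% held CANNTG, 13.7% held CCCNNGGG and 5.29% held TAATTA, so an E-box is common in such windows. In all, 6 of the 7 genes had at least 1 window in the table, 8 windows together.

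After cells with over 10% mitochondrial UMIs were left out, 7909 wild-type and 6687 Crect lacZ cells remained, with a median of 14112 and 17581 UMIs per cell. Across the libraries 76 cell barcodes were shared. The cells were clustered with the 7 genes and 4 pathway lists held out, and clusters were named from marker genes of each cell type. The chondrogenic-like class was the most unequal between libraries, with 33 wild-type and 549 Crect lacZ cells. Levels are given as CPM, the UMIs of a gene per 1000000 UMIs of all genes in the cells of a class, with exact Poisson 95% intervals that cover counting error only. Since libraries differed in depth, shares of cells with a UMI were also taken after each cell was thinned to 3000 UMIs.

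Only Neurog1, Neurod1 and Lhx2 had most of their UMIs in the neuron-like cells. Of 11 wild-type and 203 Crect lacZ UMIs of Neurog1, 90.9% and 84.2% were there. The same class held 80.6% and 79.3% of the 36 and 242 Neurod1 UMIs, and 57.7% and 75.5% of the 71 and 546 Lhx2 UMIs. The neuron-like class itself was small, with 33 wild-type and 77 Crect lacZ cells. It was a mixture, since 20 and 56 of these cells had UMIs of at most 1 of 10 neuron markers (described below). Its 6 olfactory epithelium markers summed to 1599 and 1394 CPM, against 1384 and 1530 CPM in olfactory epithelium-like cells. The other 4 of the 7 genes had most of their UMIs in mesenchyme-like cells in both libraries, as did all genes together. These 4 were thus not confined to the neuron-like cells. The mesenchymal share was 57.9% and 70.8% of the 3017 and 5128 Ebf1 UMIs. It was 85.3% and 64.4% of the 68 and 188 Ebf2 UMIs. For Ebf3 it was 72.0% and 79.0% of 880 and 1087 UMIs, and for Emx2 94.4% and 92.9% of 834 and 1024 UMIs. Mesenchyme-like cells held 89391645 of 126296568 wild-type and 100316445 of 126395819 Crect lacZ UMIs of all genes. Their Ebf1 level was 19.5 and 36.2 CPM, against 23.9 and 40.6 CPM over all cells. Ebf2 was at 0.649 and 1.21 against 0.538 and 1.49 CPM, and Ebf3 at 7.09 and 8.56 against 6.97 and 8.60 CPM. Of the 4 only Emx2 was higher there in both libraries, at 8.80 and 9.48 against 6.60 and 8.10 CPM.

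**Figure D1:**
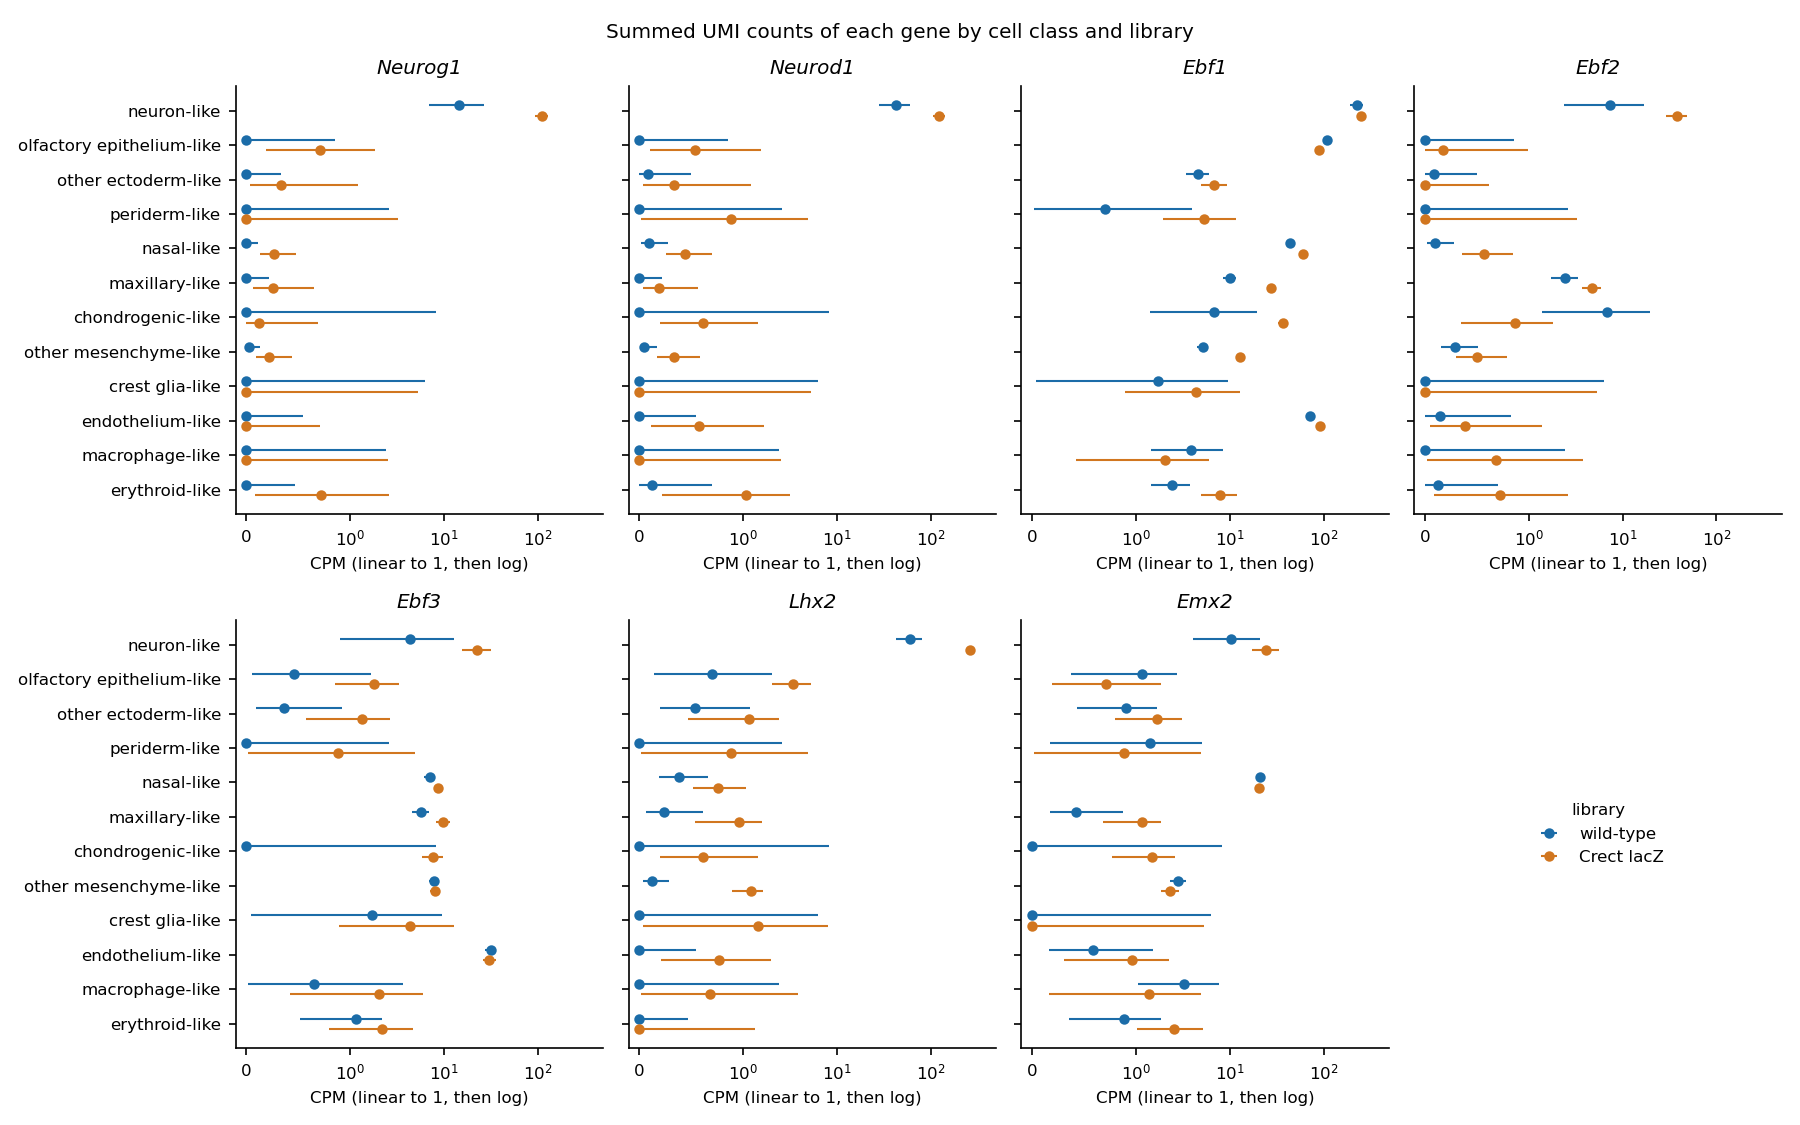
Level of each of the 7 genes in CPM (linear to 1, then log) in the named cell classes of the wild-type and Crect lacZ libraries, with exact Poisson 95% intervals. Neurog1, Neurod1, Ebf1, Ebf2 and Lhx2 were highest in the neuron-like class, Ebf3 in the endothelium-like class and Emx2 in the nasal-like mesenchyme.

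By level, Neurog1, Neurod1, Ebf1, Ebf2 and Lhx2 were highest in the neuron-like class in the mean over both libraries. How many of all genes were highest in the neuron-like class was not counted. For Neurog1, Neurod1, Ebf1, Ebf2 and Lhx2 the lower of the 2 library values there exceeded both values of the next class. With doublets removed and the clusters redrawn this did not hold for Ebf2, at 4.42 CPM in wild-type neuron-like cells and 8.27 CPM in Crect lacZ maxillary-like cells, nor for Neurog1, at 0 CPM in wild-type neuron-like cells. For Neurog1 and Neurod1 the order below the neuron-like class could not be told, since the values of every neighbouring pair of classes overlapped. Erythroid-like cells, which should lack the 7 genes, were taken as a measure of background, which may hold free RNA and doublets. These sources were not told apart, and erythroid-like cells included 1 Crect lacZ cell with UMIs of 4 of the 7 genes. They had a Neurog1 UMI in 0 of 254 wild-type cells (exact 95% interval 0 to 1.44%) and in 1.31% of 153 Crect lacZ cells, at median depths of 30626.5 and 14147 UMIs. Their levels in wild-type and Crect lacZ were 2.41 and 7.94 CPM for Ebf1, 0.127 and 0.722 CPM for Ebf2, 1.14 and 2.16 CPM for Ebf3 and 0.886 and 2.53 CPM for Emx2. Levels of that size in other classes are read here as background.

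Ebf1 separated the most classes by level. It stood at 226 CPM (192 to 264) in wild-type and 253 CPM (229 to 280) in Crect lacZ neuron-like cells, then at 109 and 88.7 CPM in olfactory epithelium-like cells. Endothelium-like cells followed at 70.8 and 91.8 CPM and overlapped with the olfactory epithelium-like values, whereas nasal-like mesenchyme lay below both at 43.5 and 59.8 CPM. Chondrogenic-like cells, at 6.75 and 37.0 CPM, and maxillary-like cells, at 9.98 and 27.6 CPM, overlapped. Thinned shares of cells with an Ebf1 UMI were 39.4% and 39.0% in neuron-like, 24.8% and 18.9% in olfactory epithelium-like, 18.6% and 24.8% in endothelium-like and 9.09% and 12.1% in nasal-like cells. In erythroid-like cells that share was 0.394% and 4.58%.

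Ebf3, a close relative of Ebf1, was highest in endothelium-like cells, at 31.6 CPM (27.5 to 36.2) and 30.3 CPM (25.8 to 35.4). The neuron-like class was next with 4.37 and 22.6 CPM, below both endothelial values. Ebf3 was similar in other mesenchyme-like (7.80 and 8.05 CPM), nasal-like (7.02 and 8.71 CPM) and maxillary-like cells (5.68 and 9.81 CPM), whose values overlapped. Emx2 stood at 21.1 CPM (19.5 to 22.8) and 20.6 CPM (19.2 to 22.0) in nasal-like mesenchyme, which overlapped with 10.2 and 24.5 CPM in neuron-like cells. The next class, other mesenchyme-like cells, stood at 2.31 and 2.81 CPM.

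All 7 genes were higher in the neuron-like class than in the other ectoderm, with Neurod1, Ebf2 and Neurog1 raised the most and Ebf1 the least. Most cells of this class had few neuron markers, so the comparison is not one of neurons alone. UMIs were summed per library and class and tested with edgeR's quasi-likelihood test, with class and library as terms and Benjamini-Hochberg adjustment over all genes. A gene was called where it differed at least 2-fold with an adjusted p below 0.05. In this comparison 7 of 7 genes were called higher, while 3.00% of the 13222 genes tested were called higher and 2.49% lower. Neurog1, Neurod1, Ebf2 and Lhx2 passed the low-count filter only through the neuron-like class, where they were high. Outside it they stayed at or below 0.722, 1.08, 1.21 and 2.12 CPM in each class fitted. A call of higher was thus near certain for these genes once they were tested, and it counts as a description only. Among genes not used for clustering, 1.56% were called higher and 0.626% lower. Apart from the 7 genes and the lists, which were held out by decision, these genes were not among the variable genes. The 2 kinds are therefore not alike. The 7 genes took no part in defining the classes, but the same cells did, so the p-values describe the classes and not independent samples of embryos.

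Neurog1, which commits progenitors to a neuronal fate, was at 14.6 CPM (6.98 to 26.8) in wild-type and 110 CPM (94.4 to 128) in Crect lacZ neuron-like cells. In the non-neuronal ectoderm it had 0 UMIs in 947 wild-type cells and 0.471 CPM in 692 Crect lacZ cells. Both neuron-like values lay above both ectodermal values, with a log2 fold change of 8.07 (SE 0.60, edgeR quasi-likelihood adjusted p = 2.24e-08). With DESeq2 in place of edgeR the adjusted p was 0.132. All 10 wild-type UMIs came from 1 cell, and that cell was among the doublets called by Scrublet, so the wild-type level was 0 once doublets were removed. Neurod1, which acts downstream of Neurog1 in neuronal differentiation, was at 42.2 and 124 CPM in neuron-like cells against 0.0594 and 0.471 CPM in the other ectoderm. The classes did not overlap, and the log2 fold change was 8.33 (SE 0.50, edgeR adjusted p = 6.25e-10).

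Lhx2, a LIM-homeodomain factor needed for olfactory neuron maturation in mouse, was at 59.7 CPM (42.8 to 81.0) and 266 CPM (241 to 293) in neuron-like cells. In the other ectoderm it was at 0.535 and 2.12 CPM. The values did not overlap and differed by 118-fold (95% interval 77.9 to 179, edgeR adjusted p = 1.48e-12). Emx2 was at 10.2 and 24.5 CPM against 1.01 and 1.18 CPM, a log2 difference of 4.06 (SE 0.41, edgeR adjusted p = 5.56e-07) without overlap. The wild-type neuron-like level of Emx2 rested on 7 UMIs in 3 of 33 cells.

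The 3 Ebf genes differed from each other in how far neuron-like cells stood above the ectoderm. Ebf1 was at 226 and 253 CPM against 30.9 and 42.7 CPM, a 6.27-fold difference (4.96 to 7.92, edgeR adjusted p = 2.21e-10). Most wild-type Ebf1 UMIs of the neuron-like class lay outside its cells with 5 or more neuron markers (described below), which held 19 of 155. In Crect lacZ such cells held 213 of 393. Ebf2 was at 7.28 CPM (2.36 to 17.0) and 38.1 CPM (29.0 to 49.1), against a single UMI in the ectoderm of each library, and its log2 fold change was 8.13 (SE 0.67, edgeR adjusted p = 3.26e-08). Ebf3 was at 4.37 CPM (0.901 to 12.8) and 22.6 CPM against 0.357 and 1.49 CPM, 17.6-fold higher (8.37 to 37.1, edgeR adjusted p = 8.63e-06). In wild-type neuron-like cells the Ebf3 level rested on 3 UMIs in 1 cell and the Ebf2 level on 5 UMIs in 2 cells. For each of the 3 the classes did not overlap. A test of the difference between the 3 genes was not made.

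**Figure D2:**
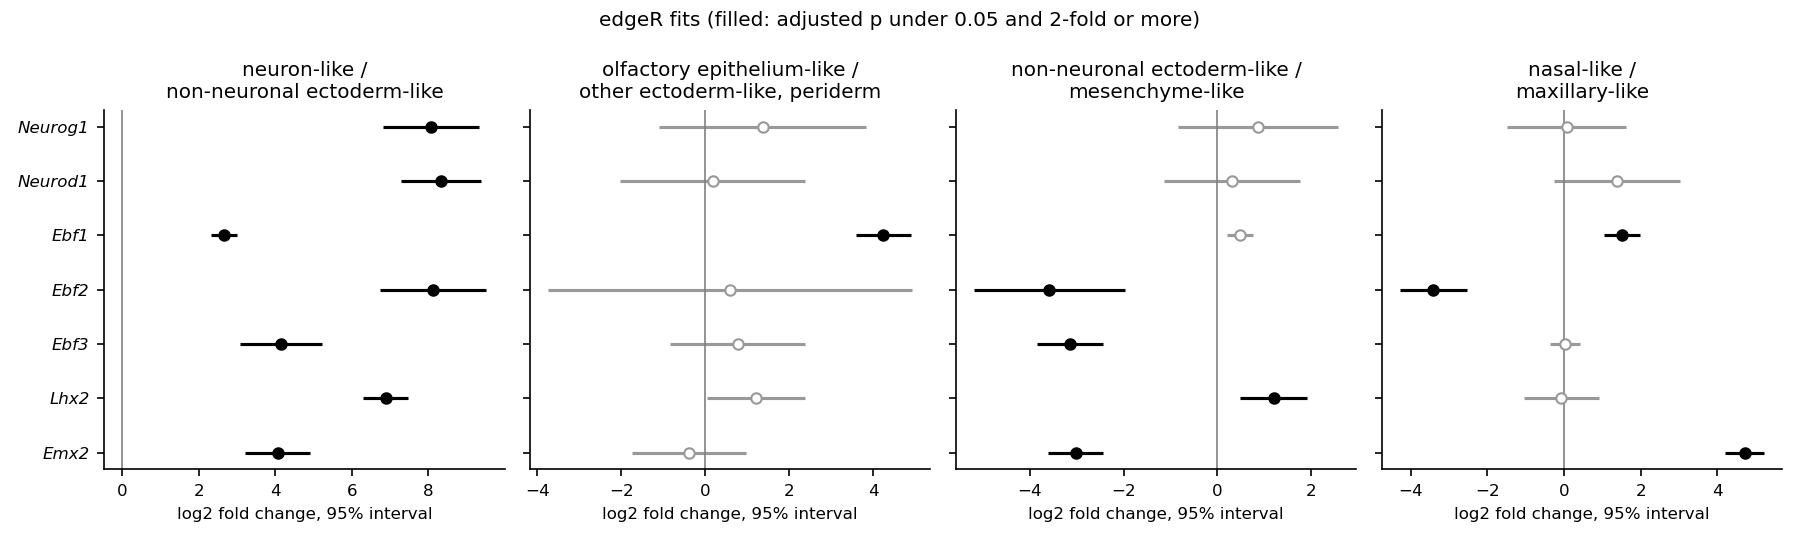
Log2 fold change of each gene (points) with its 95% interval (lines) from the edgeR fits of 4 class comparisons, filled where the adjusted p was under 0.05 and the fold 2 or more. All 7 genes were called higher in neuron-like cells, and only Ebf1 in olfactory epithelium-like cells.

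The 20 proneural and progenitor genes, of which 12 were tested, moved the same way, with 9 called higher and 0 lower and a median log2 fold change of 3.50 against -0.04 for all genes. How many of the list genes passed the low-count filter only through the neuron-like class was not counted. Nhlh1, a helix-loop-helix factor of new neurons, was at 16.02 and 65.1 CPM in neuron-like cells and had 0 UMIs in the other ectoderm of both libraries. Nhlh2, its relative, was at 33.5 and 71.6 CPM against 0 and 0.314 CPM (edgeR adjusted p = 7.6e-09), and the Notch-modifying enzyme gene Mfng was 43.7-fold higher (26.0 to 73.4, edgeR adjusted p = 6.79e-10). Of 17 neuronal differentiation genes tested, 13 were called higher and 0 lower (median log2 fold change 2.39), with Rtn1 7.16-fold and the adhesion gene Ncam1 5.69-fold higher.

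Among 10 placode and olfactory epithelium factors 5 were called higher and 1 lower (median 0.94). Sp8, a zinc finger factor of the olfactory placode, was 3.15-fold higher (2.25 to 4.41), and the growth factor gene Fgf8 was 6.71-fold lower (4.08 to 11.1). Of 17 partners and inhibitors of the 7 genes tested, such as E proteins, Id proteins and LIM-domain cofactors, 1 was called higher and 1 lower (median -0.01). The lower of these was Lmo1, at 1.46 and 13.5 CPM against 60.0 and 31.1 CPM.

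The neuron-like cluster was a mixture of few neurons and many epithelial cells. With 10 neuron markers (Tubb3, Stmn2, Elavl3, Elavl4, Ina, Nefl, Nefm, Mapt, Snap25 and Map2), 2 wild-type and 10 Crect lacZ cells had UMIs of 5 or more. These were 0.0253% (0.00306 to 0.0913) and 0.150% (0.0717 to 0.275) of all cells kept, with exact 95% intervals. No cell of the other ectodermal clusters reached 5 markers. A grouping by 0 or 1, 2 to 4 and 5 or more markers, added after seeing the data, put 20, 11 and 2 wild-type cells and 56, 11 and 10 Crect lacZ cells in order of neuronal content. The values by group are a description, since cells are not replicates.

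**Figure D3:**
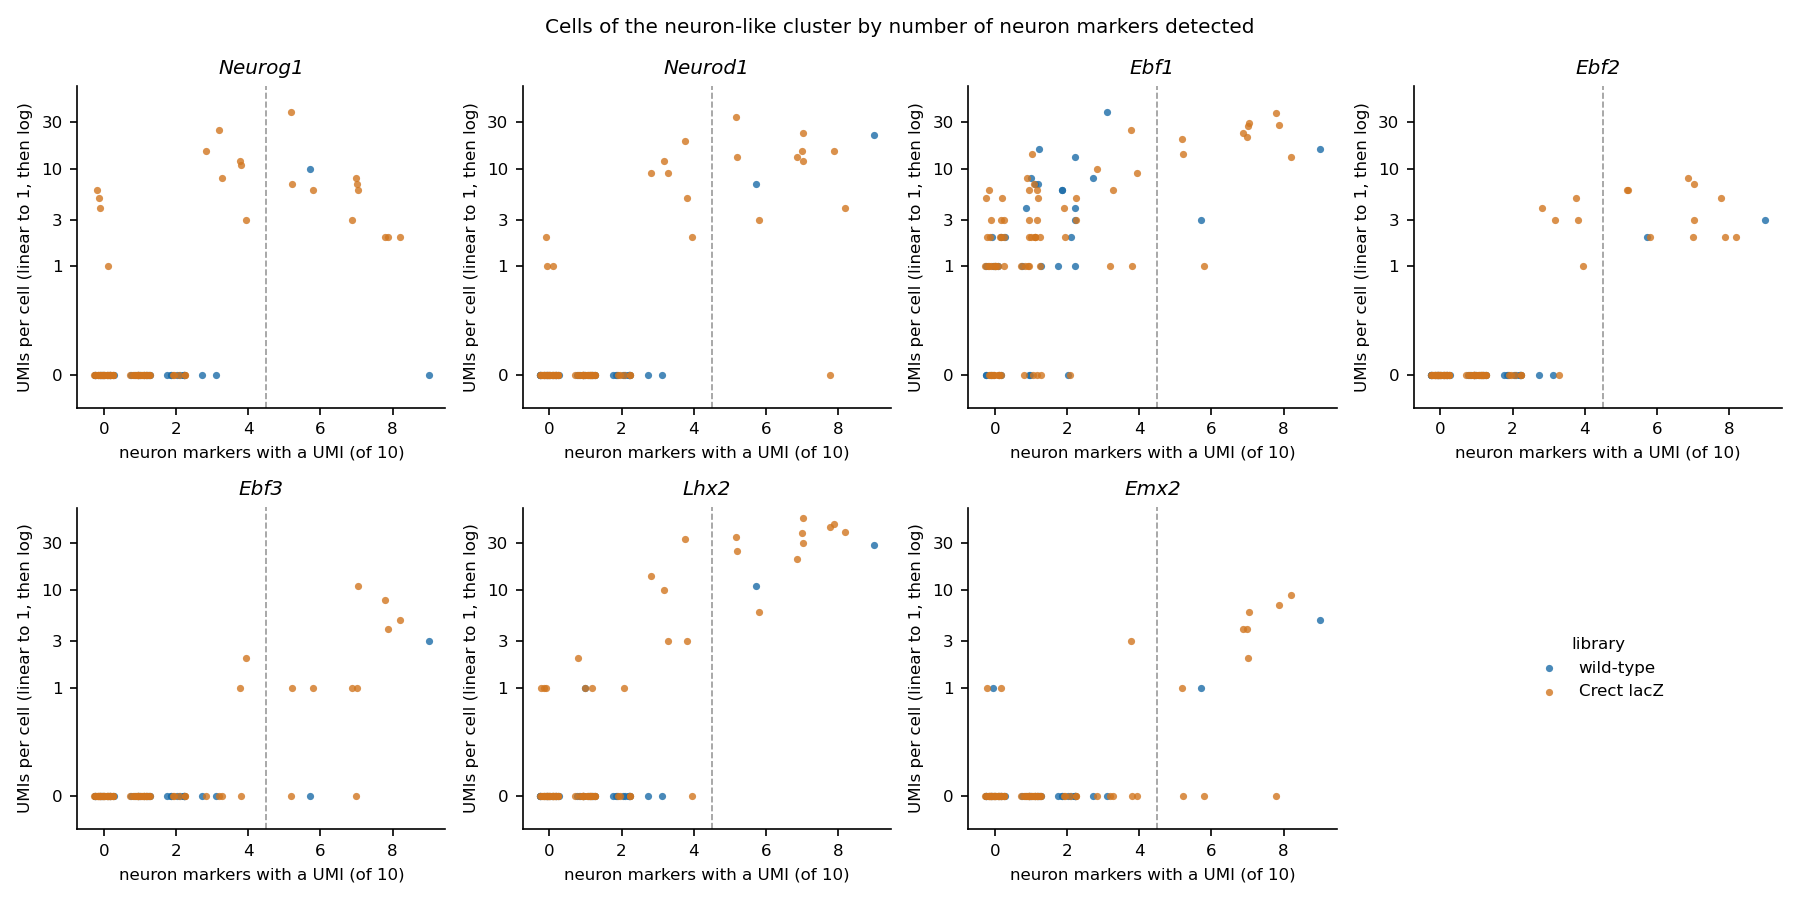
UMIs per cell of each of the 7 genes (linear to 1, then log) against the number of the 10 neuron markers with a UMI, where each point is a wild-type or Crect lacZ cell of the neuron-like cluster and the dashed line stands below 5 markers. Ebf1 counts are seen from 0 markers on, while Ebf2, in 12 of 12 cells to the right of the line, has no count at 0 or 1 marker.

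In the 12 cells with 5 or more markers, Ebf1, Ebf2 and Lhx2 were detected in 12 of 12, Neurog1 and Neurod1 in 11 of 12 and Ebf3 and Emx2 in 9 of 12. The 2 wild-type cells had 10 and 0 UMIs of Neurog1, 7 and 22 of Neurod1, and 11 and 29 of Lhx2. The same cells had 3 and 16 UMIs of Ebf1, 2 and 3 of Ebf2, 0 and 3 of Ebf3, and 1 and 5 of Emx2. The cell with more neuron markers, 9 against 6, was the one without Neurog1 and with more of each of the other 6 genes, at a depth of 13281 against 7611 UMIs. In the 10 Crect lacZ cells Neurog1 ran from 2 over a median of 6 to 38 UMIs, Neurod1 from 0 over 13 to 34, and Lhx2 from 6 over 36.5 to 55. Ebf1 ran from 1 over 22 to 37, Ebf2 from 2 over 4 to 8, Ebf3 from 0 over 1 to 11 and Emx2 from 0 over 3 to 9. Of these cells 1 wild-type and 1 Crect lacZ cell were called doublets.

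In Crect lacZ the levels of the 7 genes rose over the groups, but the middle group was itself a mixture. Its 5 cells with 2 markers had a UMI of 1 of the 7 genes each. The 3 cells with 3 markers had 4, 5 and 5 of the genes, and the 3 with 4 markers had 5, 5 and 7. Each of those with 3 or 4 markers had Neurog1, Neurod1 and Ebf1 together. In Crect lacZ cells Neurog1 was at 14.7 CPM (8.39 to 23.8) with 0 or 1 marker, 305 CPM (240 to 383) with 2 to 4 and 372 CPM (295 to 462) with 5 or more, so its middle and top values overlapped. Neurod1 went from 3.67 to 231 and 605 CPM, and Lhx2 from 6.42 to 264 and 1564 CPM, without overlap between the groups. Ebf2 had 0 UMIs in the 56 Crect lacZ cells of the lowest group, then 66.0 and 197 CPM. Ebf3 and Emx2 stood at 0 and 1.83 CPM, then at 12.4 CPM each, and were at 147 and 151 CPM in the group with 5 or more markers. In the middle group Ebf3 was detected in 2 cells, with at most 2 UMIs each, and Emx2 in 1 cell with 3 UMIs.

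Ebf1 differed from the rest in that it was already at 148 CPM (111 to 193) in wild-type and 105 CPM (86.3 to 126) in Crect lacZ cells with 0 or 1 neuron marker. It was at 272 CPM in both libraries with 2 to 4 markers, and at 909 and 977 CPM with 5 or more. In the 11 wild-type cells with 2 to 4 markers the other 6 genes had 0 UMIs, so the middle group held Neurog1, Neurod1, Ebf2 and Lhx2 only in the Crect lacZ library.

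Genes not used in the grouping changed along it in both directions. With both libraries summed, Hes6 was at 86.6, 326 and 854 CPM and Insm1, a zinc finger factor of neuronal progenitors, at 3.44, 75.4 and 142 CPM. The growth cone gene Gap43 was at 5.50, 1.84 and 502 CPM and Fezf1, a factor of olfactory sensory neurons, at 0, 7.36 and 335 CPM. Epithelial genes went the other way, with Aldh1a3 at 1087, 765 and 180 CPM, Pax6 at 140, 151 and 41.9 CPM and Sox2 at 86.6, 62.6 and 12.6 CPM. The Notch target Hes1 was at 228, 167 and 121 CPM. The libraries differed in the middle group, where Hes6 was at 36.5 CPM in wild-type and 685 CPM in Crect lacZ, and Insm1 at 3.32 and 165 CPM.

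Markers of other cell types were checked in the same groups. The 6 olfactory epithelium markers summed to 1637, 1290 and 737 CPM, with 5 of them still detected at 5 or more neuron markers. Fezf1, given above at 335 CPM in the highest group, is 1 of these 6 markers. The 7 cranial sensory ganglion markers in the files summed to 2.75, 0 and 58.6 CPM, and the 6 retina and lens markers to 0.687, 0 and 0 CPM. The 7 mesenchyme markers summed to 146, 103 and 419 CPM, and the part of these cells' other RNA in the values was not tested. The 7 forebrain markers summed to 70.1, 69.9 and 4.19 CPM, with Otx1 as the only one detected in the lowest and in the highest group.

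In the neuron-like cluster 1 of 33 wild-type cells and 17 of 77 Crect lacZ cells (22.1%, exact 95% interval 13.4 to 33.0) had UMIs of both Neurog1 and Neurod1. After thinning 3.03% and 14.3% did. Among the 2 wild-type and 21 Crect lacZ cells with a UMI of either, Ebf2 was detected in 2 and 15, Lhx2 in 2 and 17 and Ebf1 in 2 and 19. Among the 31 and 56 cells with neither, Ebf2 was detected in 0 and 0 and Lhx2 in 1 and 5, but Ebf1 in 24 and 41. All cells with 3 or more Neurog1 UMIs, 1 wild-type and 16 Crect lacZ, were in this cluster. No cell of the non-neuronal ectoderm had both Neurog1 and Neurod1.

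In the olfactory epithelium-like cells Ebf1 was the only one of the 7 genes that was higher than in the remaining ectoderm. The percentages called over all 14187 genes tested were 3.40% higher and 3.05% lower (1.82% and 1.31% of genes not used for clustering), and 1 of 7 genes was called higher. Ebf1 was at 109 CPM (99.1 to 119) and 88.7 CPM (81.1 to 96.8) in olfactory epithelium-like cells. It was at 4.59 and 6.83 CPM in other ectoderm-like and at 0.701 and 5.30 CPM in periderm-like cells, the flat outer layer. The values did not overlap, and the fold against both merged was 19.0 (12.1 to 29.8, edgeR adjusted p = 8.18e-11).

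Lhx2 was at 0.697 and 3.38 CPM in olfactory epithelium-like and at 0.541 and 1.17 CPM in other ectoderm-like cells, and the values overlapped. Its fold of 2.33 (1.04 to 5.23) did not pass (edgeR adjusted p = 0.183). Neurog1 had 0 and 4 UMIs and Neurod1 0 and 3 UMIs in the 258 and 265 olfactory epithelium-like cells. Their folds of 2.58 (0.468 to 14.2) and 1.13 (0.246 to 5.19) did not pass either, and at this depth a difference of either gene was not detectable. Ebf2, Ebf3 and Emx2 had folds of 1.51, 1.71 and 0.765, none of which passed.

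**Figure D4:**
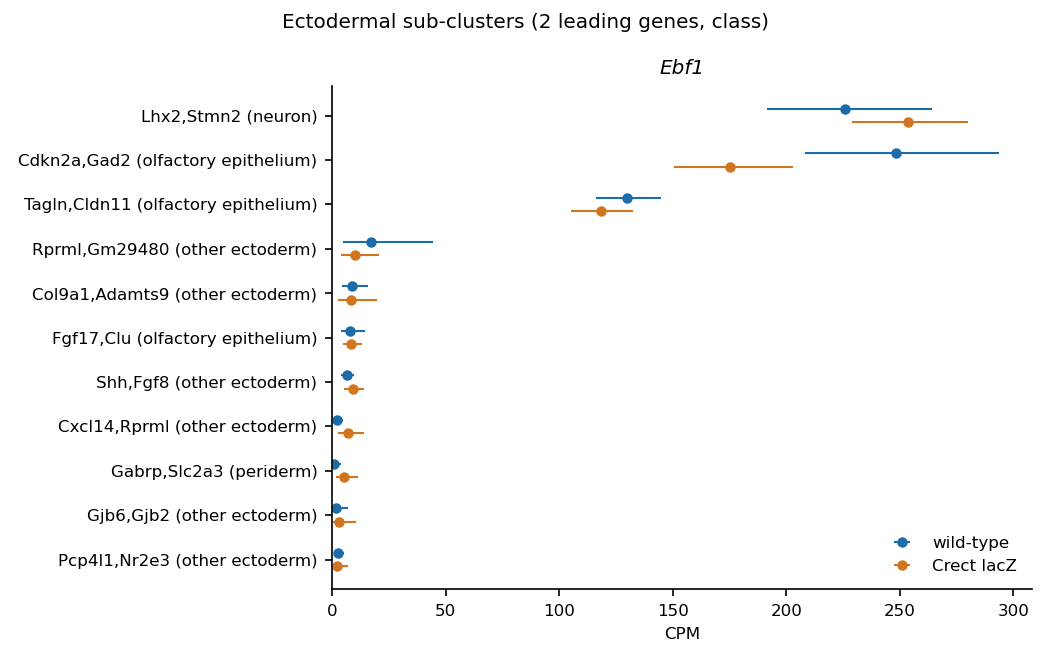
Level of Ebf1 in CPM with exact Poisson 95% intervals in each of 11 ectodermal sub-clusters, labelled by 2 leading genes and class, for the wild-type and Crect lacZ libraries. Ebf1 is high in the neuron-like cluster and in 2 of the 3 olfactory epithelium-like clusters, and near the level of the other ectoderm in the cluster led by Fgf17 and Clu.

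Ebf1 was uneven within the olfactory epithelium-like cells. It reached 248 CPM (208 to 294) and 175 CPM (151 to 203) in the sub-cluster led by Cdkn2a and Gad2. These intervals overlapped that of the neuron-like level in wild-type (226 CPM) and lay below it in Crect lacZ (253 CPM). The sub-cluster led by Tagln, Cldn11 and Aldh1a3 was at 130 CPM (116 to 145) and 118 CPM (105 to 132). The sub-cluster led by Fgf17, Clu and Dlx5 was at 7.80 CPM (3.74 to 14.3) and 8.32 CPM (4.84 to 13.3), below both others and close to other ectoderm-like cells.

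The lists followed the epithelium rather than neurons in this comparison. Of 10 placode and olfactory epithelium factors 8 were called higher and 1 lower, with a median log2 fold change of 1.84 against -0.01 for all genes. Sp8 was 15.3-fold higher (11.2 to 21.0), and Fgf8 was 3.35-fold lower (2.41 to 4.68). Of 18 neuronal differentiation genes tested 0 were called higher and 1 lower, and of 15 proneural and progenitor genes 2 higher and 0 lower. Among 17 partners and inhibitors, Id4, which blocks helix-loop-helix factors, was 4.24-fold higher (3.39 to 5.29), while the LIM-only cofactor genes Lmo1 and Lmo2 were 10.4-fold and 2.51-fold lower.

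Against the mesenchyme, the non-neuronal ectoderm was lower in Ebf2, Ebf3 and Emx2 and higher in Lhx2. The calls over all 13222 genes tested were 11.6% higher and 7.43% lower (7.38% and 4.82% of genes not used for clustering), and 1 of 7 genes was called higher and 3 lower. Emx2 was at 1.01 and 1.18 CPM in ectoderm and 8.80 and 9.48 CPM in mesenchyme, 8.10-fold lower without overlap (5.39 to 12.2, edgeR adjusted p = 1.19e-08). Ebf3 was at 0.357 and 1.49 CPM in ectoderm against 7.09 and 8.56 CPM, 8.81-fold lower without overlap (5.41 to 14.3, edgeR adjusted p = 7.1e-08). The ectodermal levels of both lay within the range of erythroid-like cells or below it.

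Ebf2, the rarest of the Ebf genes by UMIs, was at 0.0594 and 0.0784 CPM in ectoderm and 0.649 and 1.21 CPM in mesenchyme, a log2 fold change of -3.58 without overlap (SE 0.77, edgeR adjusted p = 0.000666). Ebf1 was at 30.9 and 42.7 CPM against 19.5 and 36.2 CPM. These values overlapped, and the fold of 1.39 (1.15 to 1.69, edgeR adjusted p = 0.00632) was under the 2-fold needed for a call. Lhx2 was at 0.535 and 2.12 CPM against 0.235 and 0.947 CPM. Its levels overlapped between classes although ectoderm was higher within each library, with a fold of 2.29 (1.40 to 3.74, edgeR adjusted p = 0.00669). Without library as a term the adjusted p of Lhx2 was 0.482. Neurog1 and Neurod1 did not pass (edgeR adjusted p = 0.418 and 0.759).

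In the same comparison 3 of 12 proneural and progenitor genes tested were called higher and 1 lower, with Gadd45g, a stress-response and cell cycle gene, 10.9-fold and Hes6 3.17-fold higher in ectoderm. Among placode factors 5 of 10 were called higher and 1 lower, with Fgf8 63.3-fold and Eya2 7.82-fold higher. The neuronal differentiation list split into 5 higher and 4 lower of 17, with Isl1, a LIM-homeodomain gene, 38.1-fold higher and Gap43 5.41-fold lower. Of 17 partners and inhibitors 4 were called higher and 5 lower. Lmo1 was 23.4-fold and Lmo4 3.35-fold higher, and the E protein gene Tcf12 was 2.89-fold and Id2 2.44-fold lower.

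Within the mesenchyme, nasal-like cells had more Emx2 and Ebf1 and less Ebf2 than maxillary-like cells. The percentages called over 14187 genes tested were 2.54% higher and 2.08% lower (1.07% and 0.874% of genes not used for clustering), and 2 of 7 genes were called higher and 1 lower. Emx2 was at 21.1 and 20.6 CPM in nasal-like and 0.423 and 1.15 CPM in maxillary-like cells, a 26.2-fold difference without overlap (18.5 to 37.1, edgeR adjusted p = 5.24e-14). Ebf2 was at 0.0952 and 0.564 CPM in nasal-like and 2.42 CPM (1.73 to 3.29) and 4.68 CPM (3.67 to 5.89) in maxillary-like cells. It was 10.6-fold lower in nasal-like cells without overlap (5.76 to 19.6, edgeR adjusted p = 1.1e-06).

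Ebf1 was at 43.5 and 59.8 CPM in nasal-like and 9.98 and 27.6 CPM in maxillary-like cells, without overlap and with a fold of 2.84 (2.05 to 3.94, edgeR adjusted p = 1.73e-05). That call was lost without library as a term (adjusted p = 0.1996) and when doublets were removed before clustering, which left a log2 fold change of 0.58 (adjusted p = 0.120). That clustering also redrew the classes, with 267 and 298 maxillary-like cells in place of 1058 and 756. Ebf3 did not differ beyond its error, with a fold of 1.02 (0.773 to 1.34, edgeR adjusted p = 0.983). Lhx2, Neurog1 and Neurod1 had folds of 0.952, 1.05 and 2.62, and none passed.

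**Figure D5:**
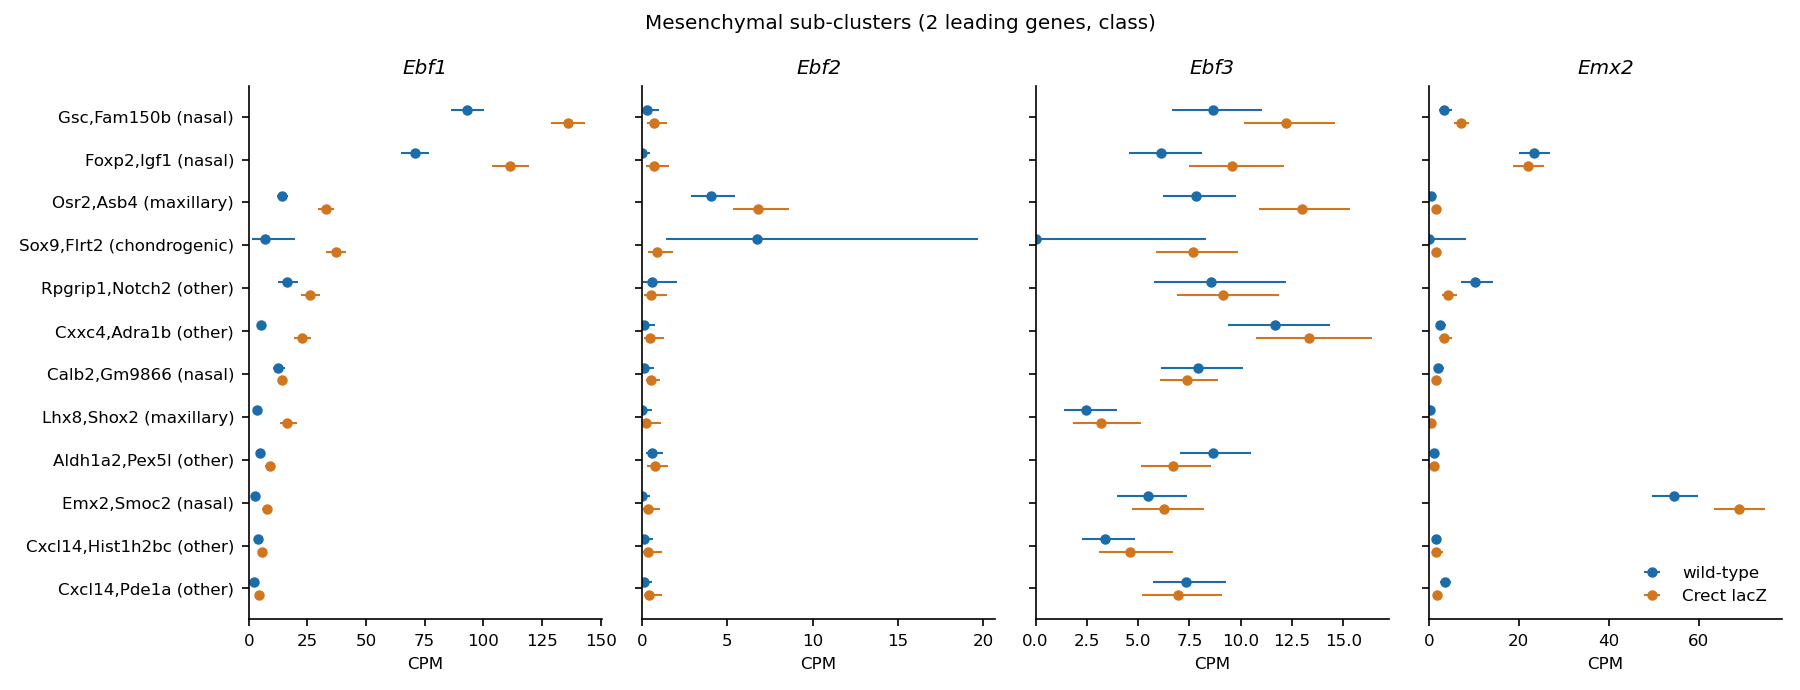
Level of Ebf1, Ebf2, Ebf3 and Emx2 in CPM with exact Poisson 95% intervals in each of the 12 mesenchymal sub-clusters, labelled by 2 leading genes and class, for the wild-type and Crect lacZ libraries. Ebf1 peaks in the sub-clusters led by Gsc and by Foxp2, Emx2 in the sub-cluster that it leads itself and Ebf2 in a sub-cluster led by Osr2, while Ebf3 is spread over the sub-clusters.

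The genes marked different mesenchymal sub-clusters. Ebf1 was highest in the sub-cluster led by Gsc and Fam150b, at 93.1 CPM (86.3 to 100) and 136 CPM (129 to 143), and next in that led by Foxp2 and Igf1, at 70.7 and 111 CPM. Emx2 was at 54.5 CPM (49.5 to 59.9) and 69.0 CPM (63.5 to 74.8) in the sub-cluster led by Emx2 and Smoc2, but at 3.43 and 7.07 CPM in the Gsc sub-cluster where Ebf1 peaked. Both genes were high in the Foxp2 sub-cluster, where Emx2 was at 23.3 and 22.0 CPM. Ebf2 was at 4.01 and 6.82 CPM in the sub-cluster led by Osr2 and Asb4, which holds 40 of 58 wild-type and 72 of 121 Crect lacZ mesenchymal Ebf2 UMIs. The wild-type chondrogenic-like value of 6.75 CPM (1.39 to 19.7) rests on 3 UMIs. Ebf3 reached at most 11.7 and 13.3 CPM in any sub-cluster.

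Of 15 proneural and progenitor genes tested 2 were called higher and 0 lower in nasal-like cells, with Hes1 2.26-fold higher, and of 18 neuronal differentiation genes 3 were higher, among them Dpysl3 (2.04-fold) and Gap43 (2.01-fold). Of 10 placode factors 0 were higher and 4 lower, with Dlx5 4.12-fold and Six4 2.74-fold lower. Of 17 partners and inhibitors 1 was called higher and 0 lower.

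The libraries differed in level for several genes, as a description of 1 library each. Neurog1, Neurod1, Ebf2, Ebf3 and Lhx2 had higher CPM in Crect lacZ than in wild-type neuron-like cells. Their intervals, which cover counting error only, did not overlap between libraries, while those of Ebf1 and Emx2 did. The share of all genes without such overlap was not counted. The 2 wild-type cells with 5 or more neuron markers held all 10 Neurog1, 29 Neurod1, 5 Ebf2 and 3 Ebf3 UMIs of the wild-type class. They also held 40 of its 41 Lhx2 UMIs. The Crect lacZ neuron-like class also held more cells with 5 or more neuron markers (10 of 77 against 2 of 33), and within those cells the Neurog1 level was 479 CPM (230 to 880) in wild-type and 372 CPM (295 to 462) in Crect lacZ. All 10 UMIs of that wild-type value came from 1 cell that Scrublet called a doublet, and the other wild-type cell had 0. Genotype, embryo pool, depth and the number of neurons captured cannot be told apart with these 2 libraries.

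In mesenchyme, Ebf1 was higher in the Crect lacZ library in 12 of 12 sub-clusters, and in ectoderm in 6 of 11. Neurod1 and Lhx2 were also higher in 12 of 12 mesenchymal sub-clusters, at levels of 0.189 to 0.821 CPM and 0.397 to 1.49 CPM in Crect lacZ. In erythroid-like cells of that library Neurod1 was at 1.08 CPM, and Lhx2 had 0 UMIs, which allows up to 1.33 CPM (exact Poisson). Emx2 was higher in 8 of 12, Ebf3 in 9 of 12 and Neurog1 and Ebf2 in 10 of 12. The share of all genes higher in 12 of 12 sub-clusters was not counted, so these counts are not read as particular to the 7 genes. In erythroid-like cells Ebf1 was at 2.41 and 7.94 CPM, so the background also stood higher in the Crect lacZ library, and its part in the difference was not tested.

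By the correlation of log2(CPM + 1) over the 24 sums of classes and libraries, among 7994 genes, the genes most like Neurog1 were Elavl3 (Pearson r = 0.978), Nhlh2 (0.961) and Igfbpl1 (0.945). Those most like Neurod1 were Elavl3 (0.9754), Nhlh2 (0.966) and Fezf1 (0.935), and those most like Lhx2 were Elavl3 (0.965), Fezf1 (0.958) and Igfbpl1 (0.935). Ebf2 was most like Elavl3 (0.772), Nhlh2 (0.766) and Gng8 (0.745), at lower values. Ebf1 was most like Lmcd1 (0.874), Pcdh19 (0.811) and Stmn2 (0.802), Emx2 most like Stmn2 (0.766), Rtn1 (0.744) and Pcdh19 (0.710), and Ebf3 most like Chst1 (0.810), Itga5 (0.745) and Apln (0.744). The sums share their libraries, and the neuron-like sums weigh heavily in each correlation that involves Neurog1, Neurod1 or Lhx2.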

How the data were processed

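Single cells of 1 wild-type and 1 Crect; ROSA26-lacZ library were sequenced with the 3' v2 chemistry of 10x Genomics, per the labels. The authors deposited unnormalized UMI counts for each gene and barcode, made with Cell Ranger 2.0 on mm10 per the submitters' processing notes, with barcode filter and strand setting not given in the sources used here. In total the libraries held 126638790 and 127765199 UMIs. Cells with over 10% mitochondrial UMIs (57 and 207) were left out.

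Cells were clustered in scanpy 1.11.5 (2000 variable genes without the 7 genes and the lists, 30 components, 15 neighbours, Leiden resolution 1.0, leidenalg 0.10.2), and ectoderm and mesenchyme again at resolution 0.8. Clusters were named from marker lists. The score cuts that turned markers into names were set after seeing the data, and clusters mixing ectoderm and mesenchyme (132 and 60 cells) were left out. Doublets were kept. Scrublet called 170 wild-type cells (2.15%), and in the Crect lacZ library, where its threshold found 2, the 358 highest scores (5.35%) were taken for the alternative.

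UMIs were summed per library and class with 20 or more cells and fitted in edgeR 4.0.16 (R 4.3.3, TMM, filterByExpr, quasi-likelihood, class and library as terms, 14 or 22 sums, Benjamini-Hochberg over all genes). The test was checked on simulated counts. Intervals are 95% (exact Poisson or Clopper-Pearson). Alternatives were DESeq2 1.42.0, other size factors, no filter, no library term, the compared sums alone, doublets removed, coarser clusters, each library left out and, added after seeing the data, neurons taken as cells with 5 or more of 10 neuron markers. Beside the 7 genes, up to 3 genes per list and direction are named, those with the largest called change at 20 CPM or more and the same sign in both libraries, and the 3 genes most correlated with each. Members and lists were chosen with earlier results of these data known. Some genes that this rule names are not reported here.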

Additional observations from a re-analysis of the deposited data

Results flagged for a closer look

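The Crect lacZ gene table listed a Cre transgene with 1143 UMIs and a lacZ transgene with 437 UMIs, which no comparison used and which the wild-type table does not list. They were picked out as signals outside the main measurement.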

How the results depend on the processing

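Without library as a term, the neuron-like comparison called 236 genes higher and 196 lower in place of 396 and 329. The olfactory epithelium-like comparison then called 294 and 277 in place of 483 and 433, and the nasal-like comparison 191 and 176 in place of 361 and 295. The cause was not tested. The counts over all genes stayed within 1.5 times under the other alternatives. Of 191 values of the 7 genes under alternatives with a test, 187 kept their direction and side of the threshold and 4 lost a call. These 4 were Neurog1 with DESeq2 (log2 fold change 8.66, adjusted p = 0.132), Lhx2 between ectoderm and mesenchyme without library as a term (1.09, adjusted p = 0.482), and Ebf1 between nasal-like and maxillary-like cells without library as a term (1.44, adjusted p = 0.1996) and without doublets (0.58, adjusted p = 0.120). With neurons taken as cells of 5 or more markers, all 7 genes were still called higher, and the log2 fold changes of Ebf3 and Emx2 were 6.98 and 6.78 in place of 4.14 and 4.06. In each library alone, 22 of 48 log2 fold changes moved beyond their error and 0 of the called ones changed sign. In the Crect lacZ library alone Ebf1 was 1.12 higher in nasal-like cells on the log2 scale, and in the wild-type library alone 2.12. No test between genotypes was possible because each genotype has 1 library. The class comparisons were made within library, since they carry library as a term. Removing doublets redrew the clusters, and the Crect lacZ neuron-like class held 117 cells in place of 77. The neuron-like Neurog1 level then went from 14.6 to 0 CPM in wild-type and from 110 to 73.1 CPM in Crect lacZ, while its UMIs in Crect lacZ went from 171 to 164. Lhx2 in Crect lacZ went from 266 to 173 CPM and from 412 to 388 UMIs. Few cells limit Neurog1, Neurod1 and Lhx2, since the 2 wild-type and 10 Crect lacZ cells with 5 or more neuron markers held 90.9% and 39.9%, 80.6% and 54.5%, and 56.3% and 62.5% of their UMIs.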
